A study of Mus musculus with 4 samples.

Results

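The following 7 interferon-inducible genes were examined over 4 Affymetrix arrays of mouse embryonic stem cells: the guanylate-binding proteins Gbp2, Gbp2b and Gbp3, the immunity-related GTPase Iigp1, the ubiquitin-like modifier Isg15, the chemokine Cxcl10 and the transcription factor Irf1. The members are every probe set (a group of short probes for a transcript) that the platform annotation assigns to only one of these 7 symbols, which gave 8 probe sets out of 12422 that are not array controls. All genes have 1 probe set except Iigp1, which has a pair. The genes were chosen by their measured values on these same arrays, so their differences are a description and carry no test. The cells were E14tg2a, an embryonic stem cell line that grows without a feeder layer. One group of arrays was labelled control and the other as expressing constitutively active Akt, the kinase activated by phosphoinositide 3-kinase signalling. Each line was sampled with leukemia inhibitory factor (LIF, 3000 U/ml), the cytokine that keeps these cells undifferentiated, and after 4 days without it. Every one of the 4 groups therefore holds 1 array, and no difference has a replicate check. The Akt cells carry the name Akt12 in the labels. Whether that is a single clone, which Akt and promoter were used, and whether controls carried an empty vector were not given in the sources used here, so a difference between one derived line and its parent would enter every Akt against control value.

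Interferons are secreted proteins that signal through receptors, JAK kinases and STAT transcription factors. Type I interferons act mainly through the interferon-stimulated response element (ISRE) in the promoters of their target genes. Interferon gamma acts mainly through the gamma-activated sequence (GAS), and IRF1, itself a product of that route, then binds ISRE-type sites. Guanylate-binding proteins and immunity-related GTPases act at the membranes of vacuoles that hold intracellular pathogens. ISG15 is conjugated to other proteins much as ubiquitin is, and CXCL10 attracts T cells through the receptor CXCR3. Mouse embryonic stem cells are known for a weak interferon response that strengthens on differentiation.

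The promoters are shown because interferon is known to act through short promoter motifs that can be searched for in these windows. RefSeq promoter windows (assembly GRCm38.p6, from 250 bases before to 50 after the annotated start) were matched for 6 of the 7 genes, all but Iigp1. Gbp3 and Irf1 have a pair of annotated starts each, and the window of the first is shown. Capitals mark matches to the ISRE, searched as GAAA, any 2 bases, GAAA, or to the GAS, searched as TTCNNNGAA, on both strands. On the opposite strand an ISRE reads TTTC, any 2 bases, TTTC. Each window is written 5′ to 3′ in the direction of its gene.
Gbp2b, chr3:142594597-142594896, plus strand: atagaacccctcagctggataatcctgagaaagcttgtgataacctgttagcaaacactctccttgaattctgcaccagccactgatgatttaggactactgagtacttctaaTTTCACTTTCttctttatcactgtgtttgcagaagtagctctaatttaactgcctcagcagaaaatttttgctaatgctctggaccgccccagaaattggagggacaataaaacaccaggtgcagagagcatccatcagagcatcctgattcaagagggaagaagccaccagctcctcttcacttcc
Gbp2, chr3:142620413-142620712, plus strand: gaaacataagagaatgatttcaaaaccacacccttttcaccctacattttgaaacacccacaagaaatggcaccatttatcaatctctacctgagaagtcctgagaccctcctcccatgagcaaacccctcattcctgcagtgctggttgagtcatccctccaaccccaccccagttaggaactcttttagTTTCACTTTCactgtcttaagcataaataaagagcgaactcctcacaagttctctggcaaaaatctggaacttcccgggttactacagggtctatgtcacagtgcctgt
Gbp3, chr3:142559794-142560093, plus strand: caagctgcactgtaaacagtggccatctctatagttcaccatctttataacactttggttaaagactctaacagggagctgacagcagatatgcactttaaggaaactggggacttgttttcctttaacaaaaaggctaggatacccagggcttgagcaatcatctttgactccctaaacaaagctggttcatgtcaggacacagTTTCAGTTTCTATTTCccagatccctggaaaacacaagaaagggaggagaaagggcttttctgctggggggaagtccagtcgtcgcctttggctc
Isg15, chr4:156200769-156201068, minus strand: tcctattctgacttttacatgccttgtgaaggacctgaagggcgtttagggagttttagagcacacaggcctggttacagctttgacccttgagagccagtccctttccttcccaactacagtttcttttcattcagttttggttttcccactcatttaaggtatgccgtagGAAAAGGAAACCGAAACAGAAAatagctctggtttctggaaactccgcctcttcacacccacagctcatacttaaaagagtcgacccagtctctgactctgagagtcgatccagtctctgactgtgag
Cxcl10, chr5:92348840-92349139, minus strand: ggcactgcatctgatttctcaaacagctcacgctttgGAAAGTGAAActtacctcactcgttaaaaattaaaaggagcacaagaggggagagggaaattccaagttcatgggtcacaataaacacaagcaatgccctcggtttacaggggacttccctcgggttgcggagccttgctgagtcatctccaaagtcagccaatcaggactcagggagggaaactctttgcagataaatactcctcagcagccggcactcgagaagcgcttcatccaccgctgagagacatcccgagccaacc
Irf1, chr11:53769764-53770063, plus strand: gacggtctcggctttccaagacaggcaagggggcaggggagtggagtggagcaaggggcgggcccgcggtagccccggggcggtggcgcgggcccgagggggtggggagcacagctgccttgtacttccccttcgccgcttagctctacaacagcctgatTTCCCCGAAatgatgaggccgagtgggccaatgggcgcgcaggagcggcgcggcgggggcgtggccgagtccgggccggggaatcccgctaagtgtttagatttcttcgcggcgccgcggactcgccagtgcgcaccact

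An ISRE match was found in 5 of these 6 genes, and 3.44% of all 32851 promoter windows of the same length hold one. Gbp2b and Gbp2 hold the same 10 bases, TTTCACTTTC, beginning 137 and 59 bases before the start. Gbp3 has a pair of overlapping matches that begin 45 and 39 bases before its first start, and none in the window of its other start. Isg15 has 3 overlapping matches, which begin 78, 72 and 66 bases before the start and form 1 unbroken stretch. The match of Cxcl10, GAAAGTGAAA, begins 213 bases before the start. The first window of Irf1 holds no ISRE match but a GAS match, TTCCCCGAA, beginning 90 bases before the start. A GAS match occurs in 8.3% of all windows. Another motif, for NF-kappaB, not capitalised above, was searched as GGG, any 3 bases, TTCC. It was found at a pair of positions in Cxcl10, beginning 159 and 104 bases before the start, and once in Gbp2 after the start, against 5.56% of all windows. None of these motifs overlaps another kind in these windows. A match is a run of letters and not a measured binding site. Among genes that are no members, 4.39% of 342 genes 2-fold or more higher without LIF in control cells held an ISRE match, against 3.32% of 4824 genes tested. For NF-kappaB these shares were 10.8% and 7.36%.

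**Figure D1:**
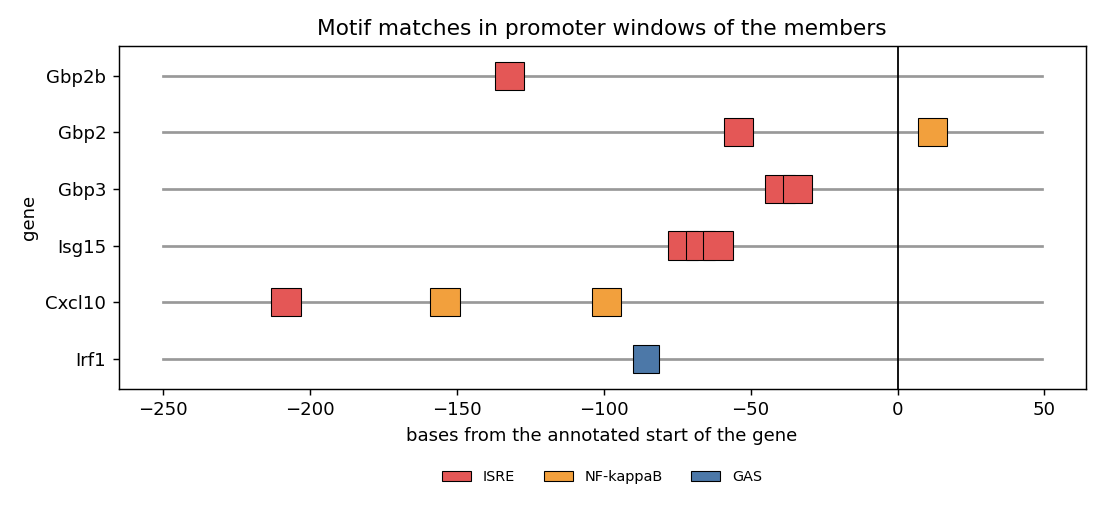
Positions of motif matches in the promoter windows of 6 genes. The x axis gives bases from the annotated start, boxes show ISRE, GAS and NF-kappaB matches, and grey lines show the window searched. ISRE matches lie in 5 genes and begin between 213 and 39 bases before the start, and the single GAS match lies in Irf1.

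Levels are normalized intensities on a linear scale, scaled so that all arrays share a distribution. Values up to 15.8, the 40th percentile of all values, are treated as a floor below which levels have no order. A probe set counts as at least 2-fold different when its log2 difference is 1 or more in size, and where 1 of the 2 arrays is at the floor that fold is only a lower limit and is given as at least so many fold. An intensity depends on the probes, so the level of one gene is not set against that of another. Over all genes, 5625 to 5659 of 8251 were above the floor on an array. The array of control cells without LIF had the lowest 3′ over 5′ actin signal, by which RNA integrity is judged, at 1.66 against 2.33 to 3.04 on the others, while its Gapdh ratio of 3.19 was the highest (2.46 to 3.05 on the others). The part of RNA quality in the differences was not tested.

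All 8 probe sets were 2-fold or more higher on the control array without LIF than on the control array with it, against a background of 7.19% of 7985 probe sets higher and 6.19% lower. The same array was at least 2-fold above that of Akt cells without LIF for all 8, against a background of 7.85% of 7991 probe sets lower and 5.59% higher in Akt cells. These comparisons used measured values that also chose the genes, so the counts describe the choice. Both rest on the single array of control cells without LIF. In bulk RNA, more cells that express a gene and more RNA per cell cannot be told apart. In Akt cells, 7 of the 8 probe sets were at the floor with and without LIF, and only Irf1 was above it. Against control cells those 7 could therefore not have been higher in Akt cells.

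The guanylate-binding proteins are large GTPases that interferon gamma induces strongly. Gbp2b (the gene long called Gbp1) had intensities of 82.5 and 662 in control cells with and without LIF, and of 0.8 and 1.85 in Akt cells with and without it. The deposited values before normalization were 104, 655.4, 0.7 and 1.7 in the same order. The control arrays were thus both above the floor and the Akt arrays both at the floor. Gbp2b was 8.02-fold higher in control cells after LIF withdrawal. Against control cells, Akt cells were at least 5.23-fold lower with LIF and at least 42-fold lower without it.

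Gbp2 followed the same order of groups. Its intensities were 71.7 and 518 in control cells with and without LIF, and 3.92 and 2.28 in Akt cells with and without LIF. LIF withdrawal in control cells gave a 7.22-fold higher level, and Akt cells were at least 4.55-fold lower with LIF and at least 32.8-fold lower without. Gbp3 had intensities of 36.5 and 269 in control cells and 4.28 and 9.48 in Akt cells, again with and without LIF. That is 7.37-fold higher in control cells without LIF, at least 2.32-fold lower in Akt cells with LIF and at least 17.1-fold lower in Akt cells without it. The 3 log2 differences after LIF withdrawal in control cells, 2.85 for Gbp2, 2.88 for Gbp3 and 3.0 for Gbp2b, lay within the SD of 0.401 that separates probe sets of one gene in that comparison. Gbp3, Gbp2b and Gbp2 are adjacent protein-coding genes on chromosome 3 in the RefSeq table of GRCm38.p6. Their transcripts are related in sequence, and how far a probe set for one of them reads another was not tested.

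Iigp1 (Irga6), an immunity-related GTPase, was measured by a pair of probe sets. The probe set whose identifier bears no mark of shared probes (its plain probe set) gave 9.57 and 97.9 in control cells with and without LIF, and 1.95 and 4.75 in Akt cells. It was above the floor on 1 array only, so its level there was at least 6.2-fold above every other array. The other, whose identifier carries the mark of probes shared within a gene family, gave 16.6 and 45.5 in control cells and 12.1 and 8.72 in Akt cells. Control cells gave a 2.74-fold higher value once LIF was withdrawn, and the level was at least 2.88-fold lower in Akt cells without LIF. With LIF the control value lay just over the floor, and its log2 difference of -0.07 to Akt cells is a bound near 0. Both probe sets had their highest value in control cells without LIF.

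Isg15 had intensities of 14.9 and 89.8 in control cells with and without LIF, and 10.2 and 3.35 in Akt cells. Cxcl10 had 12.4 and 123 in control cells and 5.75 and 6.08 in Akt cells. Each was above the floor only in control cells without LIF, by at least 5.69-fold for Isg15 and at least 7.81-fold for Cxcl10. For these genes, and for Iigp1 by its plain probe set, the arrays with LIF give no difference between the lines, because both were at the floor.

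Irf1, which encodes a transcription factor that binds ISRE-type sites, was the only member above the floor on all 4 arrays. Its intensities were 109 and 230 in control cells with and without LIF, and 31.6 and 52.7 in Akt cells with and without it. It was higher without LIF in both lines, by 2.11-fold in control cells and 1.66-fold in Akt cells. The log2 differences were 1.08 and 0.73, and probe sets of a single gene varied with an SD of 0.401 in control and 0.335 in Akt cells. That SD compares probe sets on the same arrays. It holds no variation between cultures or arrays, which 1 array per group cannot show. Akt cells were lower in both media, by 3.44-fold with LIF and 4.36-fold without. So both Akt arrays lay below both control arrays, and the lines differed by more than the media did.

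**Figure D2:**
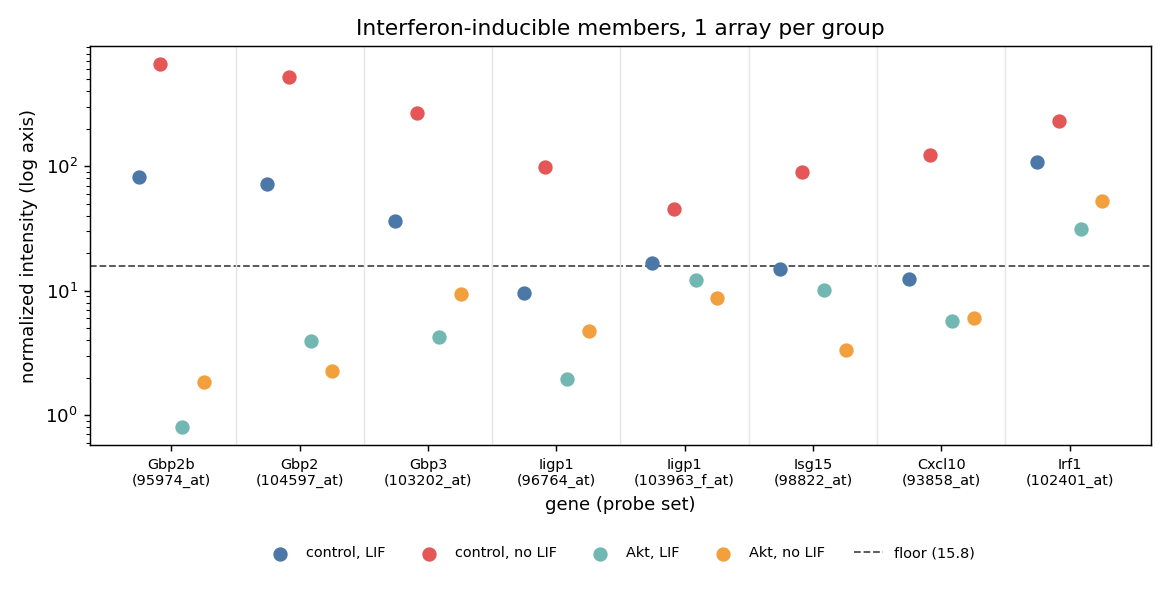
Normalized intensity (log axis) of each member probe set on the 4 arrays, 1 point per array, with the floor of 15.8 as a dashed line. Control cells without LIF are highest for all 8 probe sets, and the Akt arrays lie under the floor for all but Irf1 (31.6 and 52.7).

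In Akt cells, LIF withdrawal gave no member at least 2-fold different. Only Irf1 could be compared, and the background was 2.87% of 7918 probe sets higher and 3.51% lower. Between the lines with LIF present, 4 of the 5 probe sets above the floor on at least 1 array were at least 2-fold lower in Akt cells, those of Gbp2b, Gbp2, Gbp3 and Irf1. All but Irf1 entered this count through the control array alone, being at the floor in Akt cells. They could not have been higher in Akt cells, so the count and its median carry no information on direction except for Irf1. The background was 3.51% of 7930 probe sets lower and 3.28% higher. The 4 comparisons share arrays in pairs, so they are not independent. Median log2 differences of the member probe sets tested were 2.74 for LIF withdrawal in control cells, -1.78 for Akt against control cells with LIF and -2.80 without LIF. The medians of all probe sets tested in those comparisons were -0.02, 0.01 and 0.06. Because floor values stand in for lower ones, the members' 3 medians are bounds on the size of the difference.

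**Figure D3:**
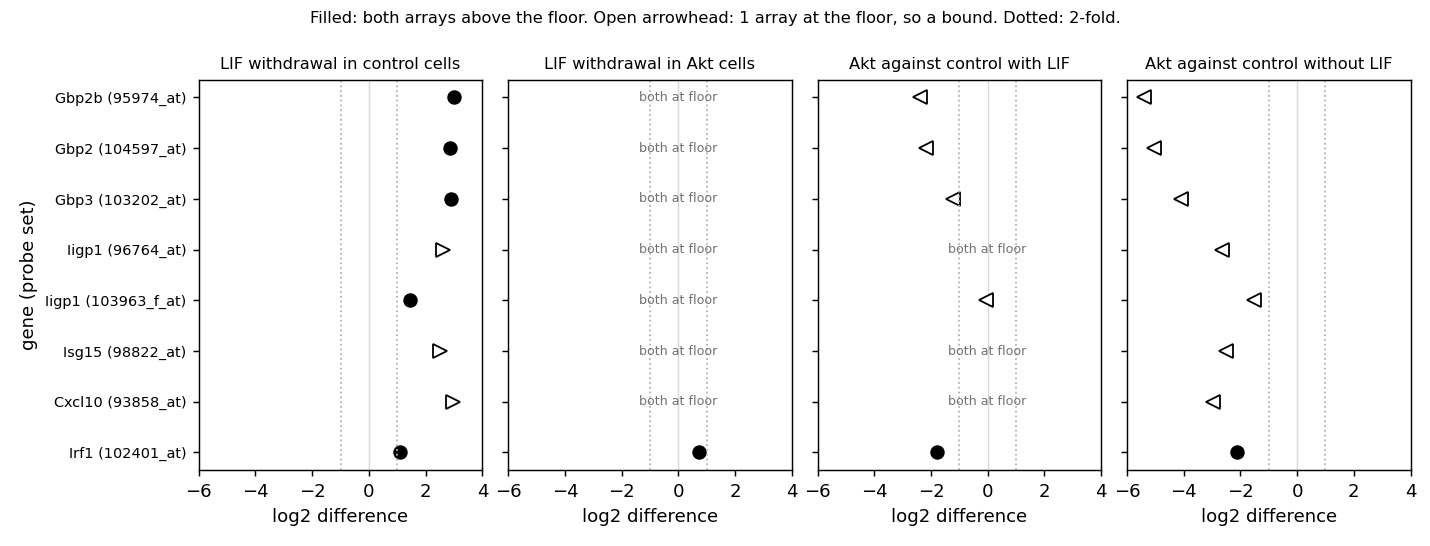
Log2 difference of each member probe set in the 4 comparisons. Filled circles have both arrays above the floor, open arrowheads are bounds with 1 array at the floor, and dotted lines mark 2-fold. Values for LIF withdrawal in control cells run from 1.08 (Irf1) to 3.0 (Gbp2b), and those for Akt against control cells without LIF from -1.53 to -5.39.

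Among themselves the members fell into levels of resemblance. Likeness was measured as the Euclidean distance between log2 values over the 4 arrays, each centred on its own mean. Gbp2 and Gbp2b were 0.30 apart, and Gbp3 lay 0.96 and 1.24 from them, about as far as from Cxcl10 (1.17). Iigp1 (plain probe set), Isg15 and Cxcl10 were 0.11 to 0.40 apart, but each is at the floor on the same 3 arrays, so this distance compares 1 value. Irf1 was at least 1.29 from every other member.

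Among 6251 other genes, those most like Gbp2 and Gbp2b were Phldb2 (distances 1.0 and 1.25) and Edn1, the endothelin precursor (1.04 and 1.32). Edn1 was also nearest to Gbp3 (0.10), with intensities of 35.9 and 247 in control cells and 3.15 and 14.4 in Akt cells. Both genes are at the floor in Akt cells, so this distance rests on the control arrays. Next came Csf1 for Gbp2 (1.30), Anxa3 for Gbp2b (1.46) and, after Wls (0.49), Prss23 for Gbp3 (0.55). Irf1 was closest to the growth factor receptor gene Igf1r (0.25), Pls3 (0.30) and the phosphatase gene Ptpn13 (0.35), all above the floor on 4 arrays. Of the 3 genes nearest to each remaining member, the first were Pkia (0.10) and Arg1 (0.06) for the Iigp1 probe sets, F5 (0.07) for Isg15 and Mmp9 (0.01) for Cxcl10. F5 and Mmp9, like Isg15 and Cxcl10, were above the floor only in control cells without LIF, so their distances rest on that array. None of the genes nearest to any member is in the interferon lists used here. Those lists hold only 127 of the 8251 measured genes, so this absence says little about the members. A sharper pattern was counted after the values were seen: 2-fold or more above the control cells that had LIF in those that lacked it, floor values in both Akt samples, and 2-fold or more lower in Akt cells in both media. Of 6258 genes, 7 had it (0.112%), namely Gbp2b, Gbp2, Gbp3, Edn1, the cytokine gene Ltb, the myosin light chain gene Myl9 and the immunoproteasome gene Psmb8. Without the condition on Akt against control cells, 66 genes (1.05%) had the pattern, 6 of them members. By the other conditions these 66 were already 2-fold or more lower in Akt cells without LIF. Only the condition with LIF therefore separates them from the 7.

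The rest of the interferon pathway was described with 11 gene lists holding 127 measured genes, of which 42 were at the floor on all 4 arrays. Over all 8251 genes, 6258 were above the floor on at least 1 array. After LIF withdrawal in control cells, 15 of 76 genes tested (19.7%) were at least 2-fold higher and 4 lower, against 7.39% and 6.4% of all genes. The median was 0.23, against -0.03 for all genes. In Akt cells without LIF compared with control cells without LIF, 19 of 81 (23.5%) were lower and 5 higher, against 8.12% and 5.87% of all genes, with a median of -0.27 against 0.06. In the other comparisons the shares were nearer the background. LIF withdrawal in Akt cells had 4 of 72 higher and 3 lower (backgrounds 3.01% and 3.65%), and Akt against control cells with LIF had 1 of 75 higher and 4 lower (3.5% and 3.64%). The sides that stand apart share the array of control cells without LIF.

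Of 18 listed interferon genes, only 4 could be tested after LIF withdrawal in each line, and none of those was at least 2-fold different. Of 9 measured ligand genes, 4 were at the floor on all arrays, among them Ifng, named here after its value was seen. Ifnb1, likewise, was above the floor only in Akt cells with LIF, at 20.9. Ifna9 was at least 2.43-fold higher in Akt than in control cells without LIF, at 38.3, and Ifna5 lay between 38.5 and 51.7 on every array. The probe sets of both carry the mark of probes shared within a gene family. How far they read other interferon alpha genes was not tested. The remaining ligand genes reached at most 30.9 on any array.

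Of 12 listed receptor and JAK-STAT genes, 9 were measured, and no STAT gene was among them. After LIF withdrawal in control cells, 2 of the 8 tested passed 2-fold upwards and 0 downwards, and the median was 0.50. These were the kinase gene Jak2 (at least 3.94-fold, at 62.2) and Il10rb, a receptor subunit for interferon lambda and interleukin 10 (3.49-fold, 32.6 to 114). A second probe set of Jak2 was at the floor on all arrays. Between the lines without LIF, 4 of 8 were lower in Akt cells: Jak2 (3.16-fold), Il10rb (3.07-fold), the type I receptor gene Ifnar1 (2.1-fold) and the kinase gene Tyk2 (2.04-fold). Of 5 other IRF genes above the floor on some array, none was 2-fold different in any comparison. Irf9, which type I interferon signalling uses to reach the ISRE, ranged from 38.5 to 57.0, and Irf7 from 18.6 to 32.6.

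Of 4 other interferon-inducible GTPase genes tested after LIF withdrawal in control cells, 2 passed 2-fold upwards and 0 downwards. Irgm1, an immunity-related GTPase that regulates the others, had intensities of 60.2 and 158 in control cells with and without LIF, and 6.75 and 21.5 in Akt cells. That is 2.62-fold higher without LIF in control cells, at least 3.81-fold lower in Akt cells with LIF and 7.34-fold lower without. Gbp7, the neighbour of Gbp3 on chromosome 3, had 40.4 and 181 in control cells and 28.4 and 65.4 in Akt cells. Unlike Gbp3 it was above the floor in Akt cells, and it was higher without LIF in both lines, by 4.46-fold and 2.30-fold. Irgm2 ranged only from 26.8 to 40.6, and Mx1 and Ifi47 were at the floor on all arrays.

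Many classical antiviral genes gave no signal here. Of 24 measured, 10 were at the floor on all 4 arrays, including Ifit1, Ifit2, Ifit3 and Rsad2, named after their values were seen. Of 12 tested after LIF withdrawal in control cells, only the exonuclease gene Isg20 was at least 2-fold higher (at least 4.47-fold, at 70.6), and none was lower. Without LIF, Isg20 and the membrane protein gene Ifitm3 were lower in Akt cells (at least 4.47-fold and 2.58-fold) and the lysosomal reductase gene Ifi30 was 2.03-fold higher. Of the ISG15 conjugation genes, Usp18 and Ube2l6 were at the floor throughout. The 3 that were tested, Uba7, Trim25 and Ube2e1, were not 2-fold different in control cells, while Ube2e1 was 2.15-fold higher in Akt cells without LIF and 2.02-fold lower in Akt than in control cells with LIF. The other CXCR3 ligand measured, Cxcl9, and Cxcr3 itself were at the floor on all arrays. Among other chemokines, Cx3cl1 was 4.26-fold higher in control cells without LIF (22.3 to 95.1) and Cxcl1 at least 3.01-fold higher, at 47.5. Second probe sets gave 0.46 in log2 as a bound for Cxcl1 and the floor throughout for Cx3cl1. In Akt cells without LIF, Cxcl12 was at least 2.36-fold higher than with LIF, while its other probe sets gave 0.62 as a bound in log2 and the floor on both arrays.

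Among negative regulators, Socs1, the feedback inhibitor of JAK kinases that interferon gamma induces, was 2.53-fold higher in control cells without LIF, at 106 against 41.8. It was 40.1 to 43.0 on both Akt arrays. Socs3, the feedback inhibitor that LIF induces through STAT3, went the other way in both lines, 5.17-fold lower in control and 7.42-fold lower in Akt cells without LIF. Socs2 and Pias2 were also lower in control cells without LIF (2.91-fold and 2.5-fold, with -0.97 in log2 by the second Pias2 probe set), and 3 of 10 genes of the list were lower in all. Of 13 NF-kappaB genes tested in control cells, Nfkbia, the inhibitor that NF-kappaB itself induces, was 2.86-fold higher and Bcl3 3.26-fold lower. The second Nfkbia probe set gave 0.91 in log2. Icam1, an adhesion gene, was 4.53-fold lower in Akt cells without LIF than with it, and Bcl3 at least 8.1-fold lower. Nfkbie was at least 2.09-fold higher in Akt cells without LIF than in Akt cells with it or in control cells without it. None of 9 nucleic acid sensing genes tested in control cells was 2-fold different. Genes of antigen presentation were the list with the highest median after LIF withdrawal in control cells (1.18), with 6 of 10 at least 2-fold higher. They were the peptide-loading gene Tapbp (4.90-fold), the class I light chain gene B2m (3.60-fold), Psmb8 (2.66-fold), Psme1 (2.35-fold), H2-D1 (2.31-fold) and H2-K1 (2.22-fold). Other probe sets gave log2 differences of 1.54 and 0.84 for Tapbp, 1.06 and 0.91 for H2-D1 and 0.95 and -0.02 for H2-K1. That of Psme1 was at the floor. Every H2-D1 and H2-K1 probe set carries the mark of probes shared within a gene family, except the H2-K1 one at -0.02. How far these probe sets read each other's genes was not tested.

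**Figure D4:**
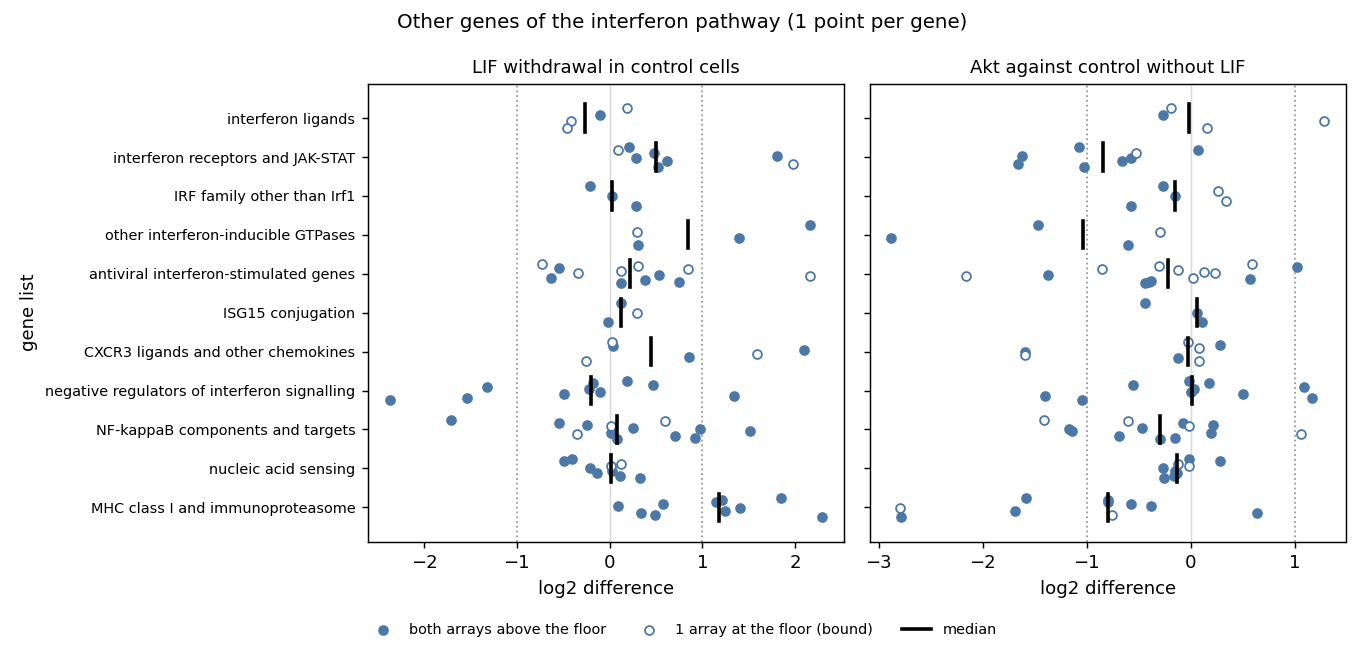
Log2 differences of the other interferon pathway genes, 1 point per gene in each of 11 lists, for LIF withdrawal in control cells (left) and Akt against control cells without LIF (right). Black bars are medians, open points are bounds and dotted lines mark 2-fold. Antigen presentation has the highest median on the left (1.18), and the other GTPases the lowest on the right (-1.03).

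A limma fit over all 4 arrays and 6258 genes, with a term for LIF and a term for the line, was used for the pathway genes only. It called few genes: 0.144% higher and 0.16% lower without LIF, and 0.16% higher and 0.463% lower in Akt cells. Of the pathway genes, Irgm1 fell in Akt cells by 2.40 in log2 (SE 0.35, limma adjusted p = 0.023). Socs3 fell without LIF by 2.63 (SE 0.33, limma adjusted p = 0.016) and Bcl3 by 2.36 (SE 0.38, limma adjusted p = 0.04). Over the other settings tried, the limma adjusted p ran from 0.025 to 0.59 for Irgm1, from 0.054 to 0.39 for Socs3 and from 0.13 to 0.49 for Bcl3. Irgm1 was at the floor in Akt cells with LIF and Bcl3 in Akt cells without it, so both estimates depend on the floor. With floors at the 20th and 60th percentile, the line term of Irgm1 was -3.02 and -1.03. The LIF term of Bcl3 was -3.17 and -1.47. No pathway gene was called higher in either term. With 1 array per group, these p-values take the difference between the lines' responses as their error.

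Markers of cell types were set beside these values. The 10 markers of undifferentiated stem cells were above the floor on every array. Their summed intensity was 10900 in control cells with LIF, 11700 and 7670 in Akt cells with and without LIF, and lowest in control cells without LIF, at 4110. Of 9 fibroblast and feeder markers tested, 3 (Col1a1, Col3a1 and Dcn) were 2-fold or more higher after LIF withdrawal in control cells and 0 lower. The summed intensity of the list was 915 in control cells without LIF and 458 to 529 on the other arrays, and 9 of 10 were above the floor there against 5 or 6. Decorin (Dcn) was 153 on that array and 8.05 to 16.6 elsewhere, and Postn was at the floor throughout. Of 10 macrophage and leukocyte markers, Ptprc, Adgre1, Itgam, Lyz2, Tyrobp and Fcer1g were at the floor on all 4 arrays. The other 4, Csf1r, Cd68, Cd14 and Laptm5, were above it on all 4. Laptm5 had 185 and 56.2 in control cells with and without LIF, and 606 and 180 in Akt cells. The sum of that list was lowest, 200, on the array where the members were highest, and highest, 853, in Akt cells with LIF. Endothelial markers summed to 122 there and 79.4 to 105 elsewhere, with Cdh5 and Tie1 at the floor throughout Flt1 at 68.4 against 3.45 to 23.1, and Pecam1 in the other direction, at 19.4 against 42.8 to 52.2. The part of other cell types in the members' levels was not tested.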

How the data were processed

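Total RNA was measured on 4 arrays, 1 per group. Each deposited file column holds linear intensities by probe set, whose software and scaling were not given in the sources used here. Trimmed means (2%) of the arrays differed by up to 1.51-fold, so the 12422 probe sets other than the 66 array controls were brought to one distribution by limma's quantile method (limma 3.58.1, R 4.3.3). A shift shared by most genes is lost by this. The 40th percentile (15.8) replaced all lower values before the log2 step. No probe set for a transcript absent from mouse cells exceeded 14.9 as deposited.

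The annotation paired 10833 probe sets with 1 symbol, 396 with several and 1193 with none, and 10817 of the 10833 were matched in a RefSeq table (GRCm38.p6) for names. For lists, the probe set with the highest mean stood for a gene (8251 genes). Besides the genes so noted above, those standing for Irf7, Socs3, Ube2e1 and Laptm5 carry the mark of probes shared within a gene family. The limma fit (lmFit, eBayes, two-sided, Benjamini-Hochberg over the 6258 genes with any array above it, threshold 0.05) left 1 residual degree of freedom, to which 8.69 were added. Scripts were tested on simulated data. The genes and lists were chosen with earlier results of these data known. Pathway genes were named by a rule: at most 4 per list with the largest measured difference in any comparison, those 2-fold different by a bound, and those past the limma threshold. Nearest genes were the 3 closest to each member. The number of arrays limits the precision. Alternatives were other scalings, floors at the 20th and 60th percentile and averaging of probe sets.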

Additional observations from a re-analysis of the deposited data

How the results depend on the processing

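Of 100 alternative values of member differences that were at least 2-fold in the reported setting, 91 stayed 2-fold in the same direction, 9 did not and none reversed. Irf1 in control cells was 0.76 in log2 as deposited and 0.95 with hybridization-control scaling. Fewer values are above a floor at the 60th percentile, and there the other losses occurred: the count for Akt against control cells with LIF became 1 in place of 4. Lowering the floor to the 20th percentile made that count 6, with Iigp1 (plain probe set) at -1.18 and Cxcl10 at -1.11, and the count for LIF withdrawal in Akt cells 2 in place of 0 (Gbp3 at 1.15, Isg15 at -1.26). The limma count for LIF, 19 as reported, was 0 under all 6 alternatives, where unadjusted p was under 0.05 for 333 to 632 genes. The count for the line, 39, became 10 (trimmed mean), 3 (as deposited), 0 (hybridization controls, 457 genes at unadjusted p under 0.05), 17 (20th percentile), 0 (60th percentile, 333 genes) and 3 (averaged probe sets). The cause was not tested. Unscaled values moved the median of all probe sets to -0.25 (LIF withdrawal, control), -0.51 and -0.23 (Akt against control, with and without LIF), and the share of higher genes among 2-fold calls from 53.6% to 30.2%, from 49.1% to 6.18% and from 42% to 18.8%. Hybridization-control scaling moved medians to -0.16 (LIF withdrawal, Akt) and 0.13 (Akt against control, LIF), and those shares from 45.2% to 24.6% and from 49.1% to 63.3%. Pathway genes higher in control cells without LIF ranged from 15.8% to 23.9% over the settings, against 5.43% to 9.71% of all genes. Those lower in Akt cells without LIF ranged from 18.5% to 27.5%, against 6.79% to 12.1% of all genes. The 27.5% and the 12.1% both belong to the values as deposited. No paired analysis was possible because each group has 1 array and no replicate number, beyond the limma fit itself, which compares LIF within each line.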
